A study of Mus musculus with 24 samples.

Results

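Genes that move and store zinc, iron and copper were described in the brains of 2 wild-derived inbred mouse strains. The 44 genes were listed by function: zinc transporters of the Slc30 and Slc39 families, metallothioneins, and genes of iron and copper uptake, storage, export and sensing. All 44 were found among the 53465 genes of the count files, and 42 had enough reads to be tested. The CAST group held 6 animals of strain CAST/EiJ, descended from Mus musculus castaneus, and the WSB group held 6 animals of strain WSB/EiJ, descended from Mus musculus domesticus. The study set these strains side by side because they differ in infarct volume when a brain artery is occluded, as in stroke. The labels give brain as the tissue of every animal and state no surgery, treatment, age, sex or dissected region.

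Zinc, iron and copper are cofactors of many enzymes, and cells keep their free ions scarce by balancing carriers against buffering proteins. Most Slc30 proteins move zinc out of the cytosol, into vesicles or out of the cell, and Slc39 proteins bring it into the cytosol. Metallothioneins buffer zinc and copper through cysteine clusters. Iron bound to transferrin enters through the transferrin receptor, is reduced and passed out of the endosome, and is then stored in ferritin or exported by ferroportin with the help of a ferroxidase. Iron regulatory proteins bind stem-loops in the mRNAs of these genes, and copper reaches its enzymes through carriers, chaperones and a pair of pumping ATPases. Zinc released from synaptic vesicles and free iron are both known as sources of injury in ischemic brain.

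Reads in genes numbered 32982569 to 46513232 per animal. Neuron markers summed to 7238 to 8267 CPM in CAST animals, against 8013 to 9236 CPM in WSB animals. None of the 8 was called different between the strains, where 42.7% of all tested genes were. CAST_142 stood apart: its summed CPM over 7 cerebellar marker genes was 1412, against 65.1 to 123 in the other CAST animals and 53.2 to 124 in WSB animals; Pcp2 was listed at 0 in every animal. Its summed striatal markers were at 335.5 CPM, against 835 to 1758 CPM in the other CAST animals and 1003 to 1653 CPM in WSB animals. WSB_100 had the lowest sums of choroid plexus and oligodendrocyte markers, at 57.0 and 2041 CPM, against 234.5 to 734 and 2571 to 4888 CPM in the other WSB animals. CPM here is reads scaled to a common library total by the TMM method. In bulk tissue, fewer cells of a type and less RNA per cell cannot be told apart.

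Metal genes differed between the strains about as often as genes in general, and mostly by small amounts. Of the 42 tested, 14 were higher and 7 lower in CAST (50% called, by an adjusted p under 0.05 over all tested genes in edgeR), where 42.7% of all 18425 tested genes were called, 21.5% higher and 21.2% lower. For 13 of the 42 the animals of CAST all lay on one side of those of WSB, above for 9 and below for 4, against 27.1% of all tested genes. Among the 42, 4 were called with a difference of at least 1.5-fold, against 20.8% of all tested genes and 2196 of the 14903 tested protein-coding genes. All 4 also had separate ranges, against 16.1% of all tested genes that met both criteria. They were Steap3, Mt3 and Atp7b, higher in CAST, and Cp, lower in CAST. The median log2 fold change of the 42 was 0.10, with a median size of 0.23, against 0.00 and 0.22 over all tested genes. All of the 42 are protein-coding. Of tested protein-coding genes 39.25% were called, 3513 had separate ranges, and the median size was 0.18. With CAST_142 left out, 22 of the metal genes were called, among them all 21 called with it. Among the 36 genes with at least 80% of their exon bases outside other genes and at most 20% of their transcript 32-mers shared with other genes, 11 were higher and 6 lower.

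**Figure D1:**
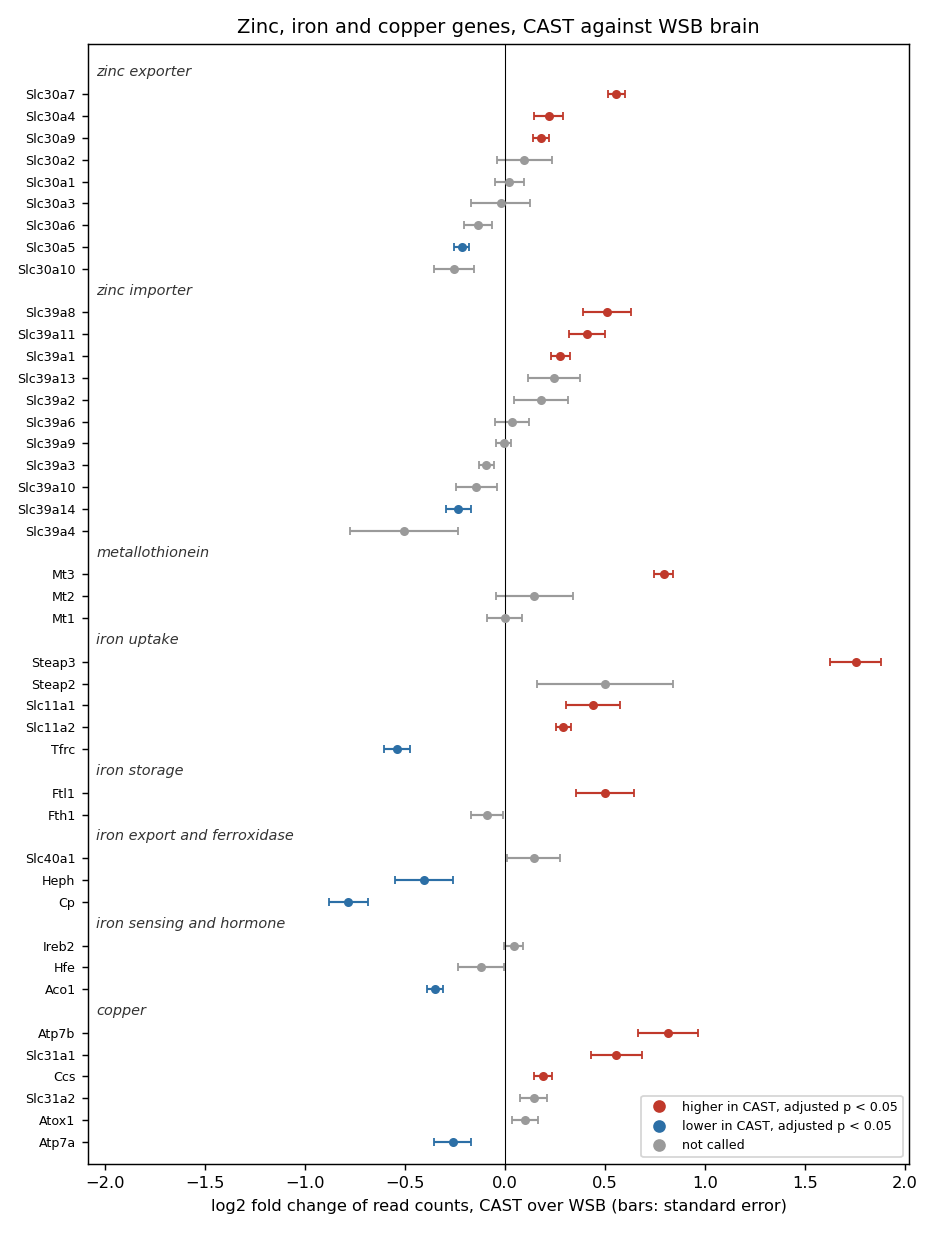
The log2 fold change of read counts, CAST over WSB, is shown on the x axis for the 42 tested metal genes, grouped by role, with bars for the standard error. Steap3 lies farthest to the right at 1.75 and Cp farthest to the left at -0.78, and most genes lie within 0.5 of 0.

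Zinc carriers of the Slc30 family differed by small amounts. Of 9 Slc30 genes tested, Slc30a7, Slc30a4 and Slc30a9 were higher in CAST, Slc30a5 was lower and 5 were not called. The share called among all tested genes was 42.7%. Slc30a7, which loads zinc into the early secretory pathway, was at 42.3, 43.5 and 45.99 CPM in CAST animals (lowest, median, highest) and at 27.5, 30.2 and 32.01 CPM in WSB animals, so that every CAST animal lay above every WSB animal. Its log2 fold change was 0.56 ± 0.04 (SE; adjusted p = 1.89e-07 by edgeR), the largest among the Slc30 genes. Slc30a5, which works in the same compartment, moved the other way, with 42.1 ± 1.81 CPM in CAST, against 48.9 ± 1.31 CPM in WSB animals (SD, n = 6 per strain) and a log2 fold change of -0.22 ± 0.04.

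Slc30a9, a mitochondrial zinc carrier and the Slc30 gene with most reads, was at 174, 187 and 192 CPM in CAST and at 157, 162 and 171 CPM in WSB (lowest, median, highest). The ranges did not overlap, and the log2 fold change was 0.18 ± 0.04 (adjusted p = 0.00178 by edgeR), which makes it the smallest called difference among the metal genes. Slc30a4 was at 72.7 ± 8.29 CPM in CAST, against 62.5 ± 4.88 CPM in WSB animals (SD, n = 6 per strain), with overlapping ranges. Its call was lost without CAST_201, CAST_203, WSB_100, WSB_135, WSB_138 or WSB_147, with an adjusted p of 0.0554 to 0.0706 by edgeR. Slc30a3, which fills synaptic vesicles of glutamatergic neurons with zinc, was not called: it was at 57.6, 89.1 and 104 CPM in CAST and at 70.7, 79.3 and 106 CPM in WSB. The plasma membrane exporter Slc30a1 had a log2 fold change of 0.02 ± 0.07, and Slc30a10, known as a manganese exporter, one of -0.25 ± 0.10 (adjusted p = 0.0588 by edgeR).

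Zinc importers also went both ways. Of 11 tested Slc39 genes, Slc39a8, Slc39a11 and Slc39a1 were higher in CAST, Slc39a14 was lower and 7 were not called. Across all tested genes, 42.7% were called. Slc39a8 and Slc39a14 are close relatives that carry iron and manganese as well as zinc, and they moved in opposite directions. Slc39a8 was at 4.64, 4.83 and 5.17 CPM in CAST and at 2.56, 3.37 and 4.59 CPM in WSB, a log2 fold change of 0.51 ± 0.12 (adjusted p = 0.00351 by edgeR). The highest WSB animal came close to the lowest CAST animal without reaching it. Slc39a14 was at 41.4 ± 1.92 CPM in CAST, against 48.7 ± 4.97 CPM in WSB animals (SD, n = 6 per strain), a log2 fold change of -0.23 ± 0.06 (adjusted p = 0.00797 by edgeR).

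Slc39a1, a plasma membrane importer, was at 32.5 ± 1.32 CPM in CAST, against 26.8 ± 1.497 CPM in WSB animals (SD, n = 6 per strain), with separate ranges; 27.4% of its transcript 32-mers also occur in other genes, among them the pseudogene Slc39a1-ps. Slc39a11 had a log2 fold change of 0.41 ± 0.09 with overlapping ranges. Slc39a10, the importer with most reads, was not called. It was at 206, 294 and 301 CPM in CAST and at 276, 286 and 361 CPM in WSB (lowest, median, highest), and its log2 fold change was -0.14 ± 0.10 (adjusted p = 0.287 by edgeR). CAST_142 and CAST_202 lay below every WSB animal, and the other 4 CAST animals lay within the WSB range. Without CAST_142, CAST_202 or WSB_169 the log2 fold change was between -0.09 and -0.08. Slc39a7, which releases zinc from the endoplasmic reticulum, had 38 reads over all 12 animals and was not tested. All but 2.99% of its body lies inside Gm20427, a gene of the same strand, so its count says little of its expression.

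Of the 3 metallothioneins, Mt3 was called higher in CAST, and Mt1 and Mt2 were not called, where 42.7% of all tested genes were. Mt3, the form known for its growth inhibitory activity in neurons, was at 104, 109 and 117 CPM in CAST (lowest, median, highest) and at 60.3, 61.8 and 71.0 CPM in WSB. Every CAST animal was above every WSB animal. The means were 110 ± 5.12 CPM in CAST, against 63.7 ± 4.26 CPM in WSB animals (SD, n = 6 per strain), 73.4% higher in CAST, with a log2 fold change of 0.79 ± 0.05 (adjusted p = 2.12e-08 by edgeR). Mt1, an inducible form, was at 59.6, 68.4 and 87.3 CPM in CAST and at 61.2, 68.99 and 80.3 CPM in WSB. The groups overlapped almost fully and the log2 fold change was 0.00 ± 0.09 (adjusted p = 0.986 by edgeR).

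The count of Mt2, the other inducible form, says little. It had 189 reads over all 12 animals, at 0.399 ± 0.0967 CPM in CAST, against 0.363 ± 0.0569 CPM in WSB animals (SD, n = 6 per strain), and only 17.2% of its body lies outside Gm45774, a gene of the opposite strand. Mt3, Mt2 and Mt1 lie in this order within 27.7 kb of chromosome 8 (94152607 to 94180327, GRCm38). On the other side of Mt3, its nearest tested protein-coding neighbours were Bbs2, at 50.6 ± 2.97 CPM in CAST, against 54.3 ± 3.79 CPM in WSB animals, which was not called, and Ogfod1, which was lower in CAST with a log2 fold change of -0.26. None of these neighbours was called higher in CAST.

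The promoters of these genes are shown because the metal response element, the site of the zinc-sensing factor Mtf1, is known from promoters of inducible metallothioneins. Each runs from 250 bases before to 50 bases after the start of transcription in RefSeq (GRCm38.p6, plus strand), and capitals mark matches to the element's core, searched as TGCACNC and TGCGCNC on both strands; no matches overlap. Mt3 is at chr8:94152357-94152656, Mt2 at chr8:94172368-94172667 and Mt1 at chr8:94178839-94179138.
Mt3: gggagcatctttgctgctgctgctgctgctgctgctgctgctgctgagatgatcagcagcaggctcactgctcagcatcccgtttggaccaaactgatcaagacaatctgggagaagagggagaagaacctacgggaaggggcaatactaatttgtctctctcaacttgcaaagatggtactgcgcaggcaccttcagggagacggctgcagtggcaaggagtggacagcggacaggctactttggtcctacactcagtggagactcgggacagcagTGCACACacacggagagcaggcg
Mt2: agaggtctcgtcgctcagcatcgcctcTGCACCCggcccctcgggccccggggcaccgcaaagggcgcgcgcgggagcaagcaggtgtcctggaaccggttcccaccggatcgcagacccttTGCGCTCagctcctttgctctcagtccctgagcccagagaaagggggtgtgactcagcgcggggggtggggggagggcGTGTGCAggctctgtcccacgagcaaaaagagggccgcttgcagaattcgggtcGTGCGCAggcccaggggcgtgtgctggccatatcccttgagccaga
Mt1: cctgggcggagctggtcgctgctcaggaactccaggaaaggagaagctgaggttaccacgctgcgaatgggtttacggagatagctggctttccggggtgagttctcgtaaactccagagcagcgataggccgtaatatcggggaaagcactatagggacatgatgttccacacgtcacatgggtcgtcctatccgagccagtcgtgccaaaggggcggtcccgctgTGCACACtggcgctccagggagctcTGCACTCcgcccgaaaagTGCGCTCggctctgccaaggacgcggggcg
The Mt3 window holds 1 match, the Mt2 window 4 and the Mt1 window 3. Relative to the annotated start, the Mt1 matches lie at -23, 2 and 20, the Mt3 match at 27 and 1 Mt2 match at 4. Elements outside the windows were not searched for, so these counts hold for the windows alone. At least 1 match occurs in 25.7% of the 32851 promoters in the RefSeq table and 4 or more in 0.517%. The Mt3 window also holds 11 copies of CTG in a row, against at most 1 in a row in the other windows. RefSeq windows were found for 37 of the 44 genes, and these are sequences of the reference strain, not of CAST or WSB. Mtf1 itself had a log2 fold change of -0.08 (adjusted p = 0.208 by edgeR).

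**Figure D2:**
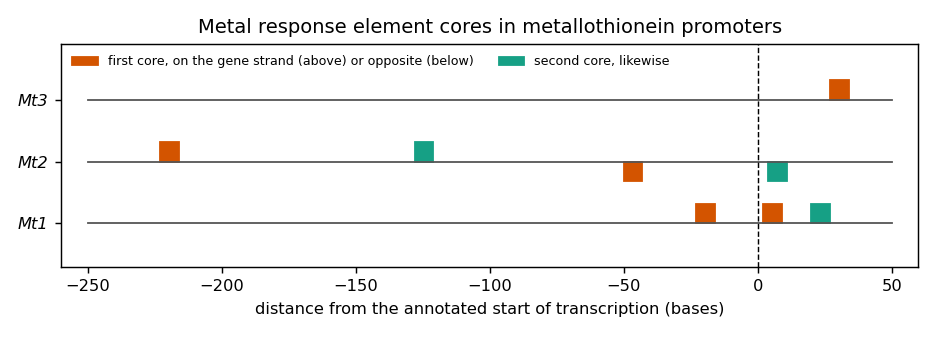
Matches to the metal response element cores are drawn as boxes along the Mt3, Mt2 and Mt1 promoter windows, with distance from the annotated start of transcription in bases on the x axis. Boxes above a line are on the gene's strand and boxes below it on the opposite strand; Mt3 has 1 box, Mt2 has 4 and Mt1 has 3.

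Iron uptake held the largest difference and had genes moving both ways. Steap3, the reductase that turns endosomal ferric iron into the ferrous form, was at 9.87, 10.5 and 11.8 CPM in CAST (lowest, median, highest) and at 2.38, 3.16 and 3.99 CPM in WSB. The lowest CAST animal was above the highest WSB animal by more than the whole range of either strain. The means were 10.7 ± 0.797 CPM in CAST, against 3.17 ± 0.678 CPM in WSB animals (SD, n = 6 per strain), or 3.37-fold higher in CAST, with a log2 fold change of 1.75 ± 0.13 (adjusted p = 1.18e-07 by edgeR). Its body (chromosome 1, 120190757 to 120272705, GRCm38) overlaps no other gene, and 0.105% of its 32-mers are shared. Of its nearest tested protein-coding neighbours, Dbi, at 96.3 ± 17.9 CPM in CAST, against 63.1 ± 9.17 CPM in WSB animals, and 3110009E18Rik were higher in CAST on one side, and C1ql2 and Insig2 were not called on the other.

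Tfrc, the transferrin receptor, was lower in CAST. It was at 69.5, 72.6 and 85.6 CPM in CAST and at 101, 108 and 126 CPM in WSB (lowest, median, highest), with no overlap, and its log2 fold change was -0.54 ± 0.06 (adjusted p = 1.27e-05 by edgeR). Slc11a2, which carries the reduced iron out of the endosome, was higher in CAST: 54.2 ± 2.22 CPM, against 44.2 ± 1.32 CPM in WSB (SD, n = 6 per strain), a log2 fold change of 0.29 ± 0.04 with separate ranges. The receptor and the reductase and carrier that act after it therefore differed in opposite directions. Slc11a1, the metal transporter of macrophage phagosomes, was at 1.85, 2.62 and 3.13 CPM in CAST and at 1.61, 1.93 and 2.17 CPM in WSB, a log2 fold change of 0.44 ± 0.13 (adjusted p = 0.0170 by edgeR). Steap2, a metal reductase of the same family as Steap3, was at 78.7 CPM in CAST_142, 18.9 to 30.8 CPM in the other CAST animals and 15.6 to 28.1 CPM in WSB. Its log2 fold change was 0.50 ± 0.34 with CAST_142 and -0.02 without it, and neither was called.

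Several cell type markers differed too, where 42.7% of all tested genes were called. Among 7 microglial markers tested, none was called higher and 4 were called lower. Their summed CPM ranged from 134 to 228 in CAST and from 214 to 235.5 in WSB. Without CAST_142 the lowest sum in CAST was 199 CPM. P2ry13 was listed at 0. Of 5 tested red blood cell genes, 3 were higher and none lower, with summed CPM of 44.6 to 179 in CAST and 32.9 to 87.8 in WSB; Alas2 was listed at 0. Without CAST_170 the highest sum in CAST was 89.0 CPM. Of 8 endothelial markers, 1 was higher and 3 were lower, with summed CPM of 243.5 to 280 in CAST and 256 to 288 in WSB. Their part in the differences of Slc11a1, Steap3 and Tfrc was not tested.

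**Figure D3:**
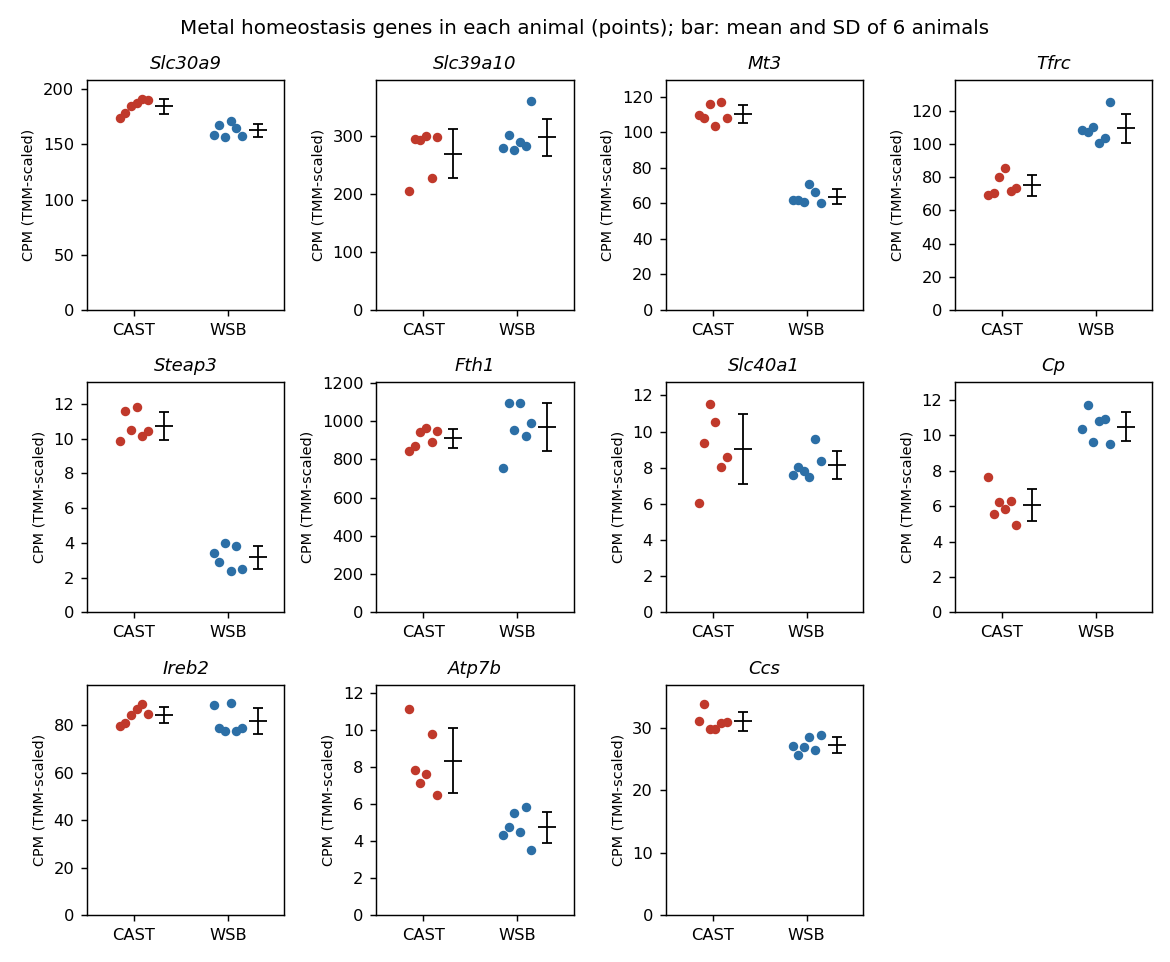
TMM-scaled CPM is plotted for each of 6 CAST and 6 WSB animals (points), with the mean and SD beside them, for the genes with the largest differences and the gene with most reads in each role. CAST and WSB points do not overlap for Slc30a9, Mt3, Tfrc, Steap3, Cp, Atp7b and Ccs, and overlap for Slc39a10, Fth1, Slc40a1 and Ireb2.

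Ferritin heavy chain was not called and the light chain was. Fth1, the heavy chain with ferroxidase activity, was at 842, 918 and 963 CPM in CAST and at 756, 971.5 and 1098 CPM in WSB (lowest, median, highest). The WSB animals spanned the whole CAST range, and the log2 fold change was -0.09 ± 0.08 (adjusted p = 0.41 by edgeR). Ftl1, the light chain, was called higher in CAST with 2.23 ± 0.404 CPM, against 1.58 ± 0.251 CPM in WSB (SD, n = 6 per strain). Its count is uncertain: 63.8% of its 32-mers occur in other genes, among them Ftl1-ps1, and 65.4% of its exon bases lie outside other genes. Reads that align to several places went uncounted, and their share was 15.8% ± 0.195 for CAST, against 17.2% ± 0.177 for WSB (SD, n = 6 per strain; exact permutation p = 0.00216, the smallest these group sizes allow).

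Iron export showed lower ferroxidases beside a transporter that was not called. Cp, ceruloplasmin, the copper ferroxidase that astrocytes carry on their surface, was at 4.95, 6.04 and 7.66 CPM in CAST and at 9.53, 10.6 and 11.7 CPM in WSB (lowest, median, highest), with no overlap. The means were 6.09 ± 0.912 CPM in CAST, against 10.5 ± 0.829 CPM in WSB animals (SD, n = 6 per strain), and the log2 fold change was -0.78 ± 0.10 (adjusted p = 1.98e-05 by edgeR). Cp (chromosome 3, 19957054 to 20009145, GRCm38) overlaps Hps3 on the opposite strand, which leaves 78.2% of its exon bases outside other genes; Hps3 was higher in CAST, at 25.2 ± 1.89 CPM, against 13.8 ± 0.646 CPM in WSB. Of its other nearest tested protein-coding neighbours, 1700064H15Rik and Hltf were lower in CAST, with log2 fold changes of -2.43 and -0.19, and Crh was not called. Heph, a membrane-bound relative of Cp, was at 5.38 ± 1.15 CPM in CAST, against 7.14 ± 1.12 CPM in WSB animals, a log2 fold change of -0.41 ± 0.14 (adjusted p = 0.0366 by edgeR). The Heph call was lost without CAST_170, CAST_200, CAST_201, CAST_203, WSB_120, WSB_138 or WSB_147, with an adjusted p of 0.0510 to 0.0824 by edgeR.

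Slc40a1, ferroportin, the iron exporter, was at 6.03, 8.99 and 11.5 CPM in CAST and at 7.51, 7.93 and 9.60 CPM in WSB, a log2 fold change of 0.14 ± 0.13 (adjusted p = 0.41 by edgeR), with the CAST animals spread on both sides of the WSB animals. Its log2 fold change was 0.23 without CAST_142, 0.06 without CAST_200 and 0.09 without CAST_201, and none of these was called. Cp is also made by the choroid plexus and by astrocytes. Of 7 tested choroid plexus markers, 1 was lower in CAST and none higher, with summed CPM of 141 to 542 in CAST and 57.0 to 734 in WSB; Kcnj13 was listed at 0. Each lower limit came from 1 animal of its strain, and the lowest sum was 281 CPM in CAST without CAST_142 and 234.5 CPM in WSB without WSB_100. Of 8 astrocyte markers, 1 was higher and 1 lower, with summed CPM of 4754 to 5747 in CAST and 4438 to 5254 in WSB. Of all tested genes 42.7% were called. Their part in the difference of Cp was not tested.

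Of the iron sensors, Aco1 was lower in CAST and Ireb2 was not called. Aco1, a cytosolic aconitase that turns into an RNA-binding iron regulatory protein when iron is scarce, was at 35.7, 39.3 and 41.3 CPM in CAST and at 47.4, 49.98 and 50.7 CPM in WSB (lowest, median, highest). The ranges were separate and the log2 fold change was -0.35 ± 0.04 (adjusted p = 1.07e-05 by edgeR). Ireb2, the other iron regulatory protein, was at 79.8, 84.5 and 89.1 CPM in CAST and at 77.5, 78.97 and 89.3 CPM in WSB, a log2 fold change of 0.04 ± 0.05 (adjusted p = 0.503 by edgeR). Hfe, a membrane partner of transferrin receptors, had a log2 fold change of -0.12 ± 0.12. Hamp, the liver hormone hepcidin, was listed at 0 reads in every animal, and its whole body lies inside Gm44662 on the opposite strand, so nothing is said of its expression.

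The stem-loops that Aco1 and Ireb2 bind are shown because they tie the genes of uptake, storage and export together. They were searched in annotated untranslated regions (GENCODE M21) as a C, 5 bases, the loop CAGTGN and 5 bases that pair with the first 5, with G-T pairs allowed. Of the 44 genes, Fth1, Ftl1, Slc40a1 and Tfrc held matches, and 0.8% of 21865 protein-coding genes did. Capitals mark the loop, and the Tfrc sites are numbered in alphabetical order of their sequences, not by position. The search misses any element with an unpaired base in its 5-base arms. The sites of Fth1, Ftl1 and Slc40a1 lie before the coding sequence, where binding is known to block translation, and those of Tfrc lie after it, where binding is known to protect the mRNA from decay.
Fth1: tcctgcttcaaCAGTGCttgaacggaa
Ftl1: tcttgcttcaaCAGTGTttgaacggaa
Slc40a1: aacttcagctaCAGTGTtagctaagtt
Tfrc, site 1: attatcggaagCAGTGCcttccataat
Tfrc, site 2: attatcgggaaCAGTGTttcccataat
Tfrc, site 3: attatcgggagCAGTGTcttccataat
Tfrc, site 4: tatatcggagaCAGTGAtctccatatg
Of these mRNAs, Tfrc was lower in CAST, Ftl1 was called higher with an uncertain count, and Fth1 and Slc40a1 were not called. Read counts measure mRNA and not its translation.

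Copper genes went both ways. Of 6 tested, Atp7b, Slc31a1 and Ccs were higher, Atp7a was lower, and Slc31a2 and Atox1 were not called. Among all tested genes, 42.7% were called. Atp7b, a copper pump of the secretory pathway, was at 6.52, 7.74 and 11.2 CPM in CAST (lowest, median, highest) and at 3.52, 4.64 and 5.84 CPM in WSB. The lowest CAST animal lay just above the highest WSB animal, and CAST_142 was highest. The means were 8.35 ± 1.77 CPM in CAST, against 4.74 ± 0.843 CPM in WSB animals (SD, n = 6 per strain), or 1.76-fold higher in CAST, with a log2 fold change of 0.82 ± 0.15 (adjusted p = 0.00062 by edgeR). Its body (chromosome 8, 21992785 to 22060305, GRCm38) overlaps no other gene. The neighbours Gm21119 and Gm31371 on one side and Alg11 on the other were also higher in CAST, and Nek5 beyond Alg11 was not called (log2 fold change -0.26). Alg11 was at 45.5 ± 2.30 CPM in CAST, against 36.1 ± 3.53 CPM in WSB.

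Atp7a, the second copper pump, was at 12.5 ± 0.6249 CPM in CAST, against 14.97 ± 2.43 CPM in WSB animals (SD, n = 6 per strain), a log2 fold change of -0.26 ± 0.09 (adjusted p = 0.0357 by edgeR). The Atp7a call was lost without CAST_200, CAST_201, CAST_202, CAST_203, WSB_120, WSB_135 or WSB_138, with an adjusted p of 0.0514 to 0.0738 by edgeR. Ccs, the chaperone that loads copper into superoxide dismutase and the copper gene with most reads, was at 29.8, 30.9 and 33.9 CPM in CAST and at 25.7, 27.03 and 28.95 CPM in WSB, with a log2 fold change of 0.19 ± 0.04 (adjusted p = 0.00387 by edgeR) and separate ranges. Sod1, the enzyme it serves, was lower in CAST, at 80.4 ± 5.67 CPM, against 101.5 ± 7.27 CPM in WSB (SD). The log2 fold change of Sod1 was -0.34 ± 0.06 (adjusted p = 0.000342 by edgeR), and the gene was added after its value was seen. Slc31a1, the copper uptake channel, had a log2 fold change of 0.56 ± 0.13, and only 2.73% of its exon bases lie outside Cdc26, a gene of the opposite strand, so its count is uncertain. Slc31a2 and Atox1, the chaperone of the copper pumps, had log2 fold changes of 0.14 ± 0.07 and 0.10 ± 0.06.

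**Figure D4:**
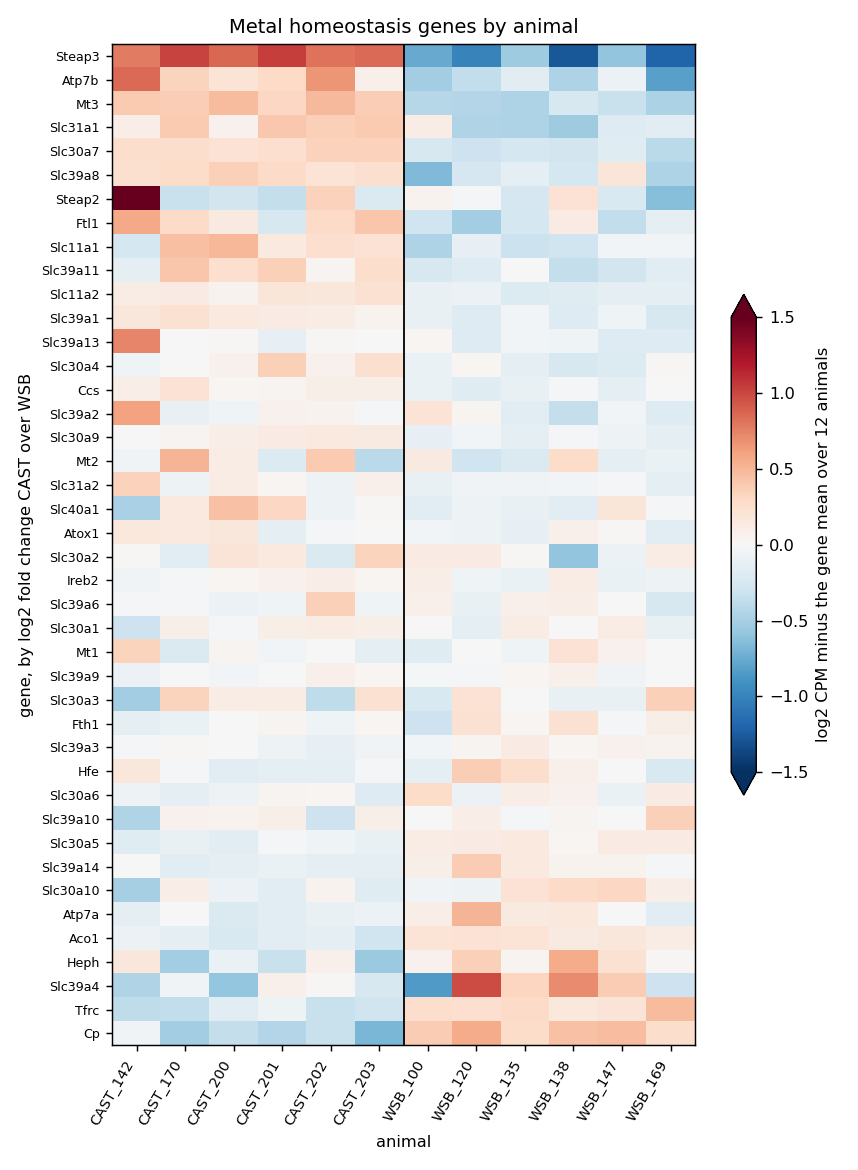
Each row is a tested metal gene and each column an animal; colour gives log2 CPM minus the gene's mean over 12 animals, and rows run from the highest to the lowest log2 fold change of CAST over WSB. Steap3, Mt3 and Slc30a7 are above their mean in all CAST animals, Cp and Tfrc are below it in all of them, and Steap2 is high in CAST_142.

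Other genes of zinc, iron and copper handling were compared with the same fit. Of 59 found, 47 were tested, 10 were higher and 12 lower in CAST (46.8% called, against 42.7% of all tested genes). Trf, Prnp, Cox17, Sco2 and Slc39a5 were not tested. Their bodies lie wholly or almost wholly inside other genes, so their counts say little of their expression. Iron genes made up 29 of the 47 tested and 15 of the 22 called, with 8 higher and 7 lower. Tmprss6, the protease that restrains hepcidin production in liver, was at 0.884, 1.15 and 1.43 CPM in CAST and at 7.15, 8.46 and 9.53 CPM in WSB (lowest, median, highest), a log2 fold change of -2.84 ± 0.12 (adjusted p = 4.12e-10 by edgeR), or 7.17-fold lower in CAST. Bmp6 and Bmpr1a, a ligand and a receptor that drive hepcidin production, had log2 fold changes of -0.57 and -0.41. Of other iron genes tied to hepcidin control, Tfr2 was higher in CAST, with 0.35. Hfe2 and Neo1 were not called, with -0.09 and -0.02. Cybrd1, Loxl1, Cutc, Sod1, Memo1, Fbxl5 and Slc25a28 were also lower, with log2 fold changes of -0.64 to -0.21, and Blvrb, S100b, Flvcr2, Tfr2, Slc48a1 and Flvcr1 were higher, with 0.22 to 0.69. S100b was at 31.3 CPM in CAST_142, 15.8 to 18.5 CPM in the other CAST animals and 12.2 to 18.1 CPM in WSB, and 16.98% of its exon bases lie outside Dip2a. Its log2 fold change was 0.44, and 0.25 without CAST_142; its call was lost without CAST_170, CAST_202, WSB_100, WSB_120, WSB_135, WSB_147 or WSB_169, with an adjusted p of 0.0529 to 0.0891 by edgeR. The Flvcr1 call was lost without CAST_202, WSB_138 or WSB_169, with an adjusted p of 0.0531 to 0.0579 by edgeR.

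Ncoa4, the receptor that sends ferritin to autophagy, was at 24.3, 25.6 and 28.9 CPM in CAST and at 10.8, 12.2 and 13.4 CPM in WSB, 2.16-fold higher in CAST with a log2 fold change of 1.11 ± 0.06 (adjusted p = 9.89e-09 by edgeR); 18.7% of its 32-mers are shared with other genes. Steap1, a relative of Steap3, was lower in CAST at 0.212 ± 0.0539 CPM, against 0.678 ± 0.152 CPM in WSB (SD, n = 6 per strain), a log2 fold change of -1.67 ± 0.21. The zinc-sensing receptor Gpr39 was lower in CAST with a log2 fold change of -0.99 ± 0.22, and 50.5% of its exon bases lie outside other genes. Hmox2, the constitutive heme oxygenase, was higher in CAST with a log2 fold change of 0.84 ± 0.20, and 12.2% of its exon bases lie outside other genes. Dbh, the copper enzyme that makes noradrenaline, was at 4.32 CPM in CAST_142, 0.324 to 1.13 CPM in the other CAST animals and 0.202 to 0.392 CPM in WSB. Its call was lost without CAST_142 (log2 fold change 0.86, adjusted p = 0.0575 by edgeR), and also without WSB_120, WSB_147 or WSB_169, with an adjusted p of 0.0572 to 0.0588 by edgeR.

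**Figure D5:**
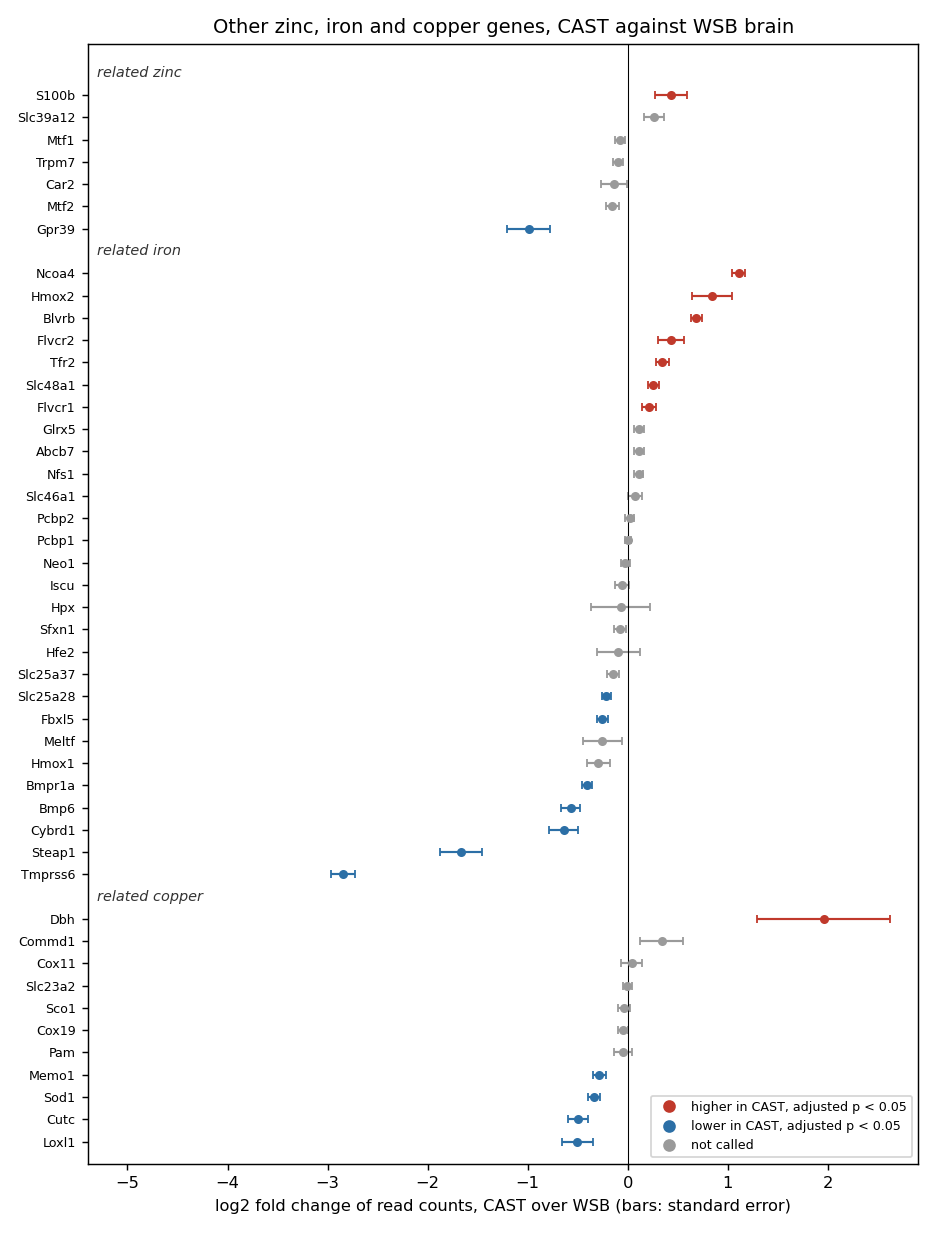
The log2 fold change of read counts, CAST over WSB, is shown on the x axis for 46 of the 47 tested further zinc, iron and copper genes, with bars for the standard error. Tmprss6 lies farthest to the left at -2.84, Ncoa4 at 1.11 has a short bar, and Dbh at 1.96 has the longest bar.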

How the data were processed

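RNA from brain was measured by sequencing in 12 mice, each on lanes 5 and 6. Per the labels, the deposited files hold whole-number counts of reads per Ensembl gene, 1 file for a lane of an animal, not normalized. Among the tools, HTSeq, TopHat2 2.1.1, DESeq2 and cutadapt are listed, per the submitters' processing notes. How each was used, which genome build and annotation, and whether strand was read are not stated there. Reads ambiguous between genes were 11.1% to 16.5% of all counted and are in no gene's count. A gene that overlaps another can therefore lose reads, and a count may hold intronic reads. A file has 53465 gene rows and 5 rows of unassigned reads; those rows were left out of library sizes and tests, and reads in genes were 62.9% to 68.0% of all counted.

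Lanes were summed per animal, since they repeat 1 library. Of the identifiers, 53360 are in GENCODE M21 (GRCm38), used for symbols and positions; where several shared a symbol, the one with most reads took it. CAST was tested against WSB in edgeR 4.0.16 under R 4.3.3 (quasi-likelihood test, robust dispersion, TMM scaling, default expression filter by strain), which was tested on simulated data. Standard errors are the log2 fold change divided by the root of F. DESeq2 1.42.0 was an alternative. The labels number the animals but do not describe how they were raised or taken. Strain order matches the order of library indexes, so strain and index cannot be told apart. Lowest, median and highest values were given by rule for called genes with separate ranges and at least 1.5-fold change. The gene with most reads in each role was also given by rule, and reads grow with gene length. Slc30a3, Slc30a7, Slc39a8, Mt1, Slc11a1 and Aco1 were given in the same way outside this rule. Of the further list, the 3 called genes of largest fold in each direction were named by rule. Bmp6, Bmpr1a, Tfr2, Hfe2, Neo1, Sod1 and Mtf1 were added after their values were seen. The genes and lists were chosen with earlier results of these data known. Reads of CAST and WSB may align unequally to the reference, which was not tested. The value of 1 tested gene of the further list, which is in the counts, is not reported here.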

Additional observations from a re-analysis of the deposited data

Results flagged for a closer look

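Within each strain, each tested metal gene, the 6 further genes named by rule, and the percentage of reads aligned to several places were searched for an animal far from the rest, meaning a gap to its nearest neighbour beyond Dixon's 95% critical share of the range. This was so in 12 of 98 groups, where chance gives about 1 in 20, and CAST_142 was the animal in 7 of them. CAST_142 was high for Steap2 (78.7 CPM, others 18.9 to 30.8), Slc39a13 (13.2 CPM, others 7.29 to 8.05), Slc39a2 (5.69 CPM, others 3.47 to 3.92), Slc39a14 (45.2 CPM, others 40.0 to 41.7), Hmox2 (4.47 CPM, others 1.89 to 2.50) and Dbh (4.32 CPM, others 0.324 to 1.13). It was low for Slc30a1 (36.5 CPM, others 44.6 to 48.6). Only 23.8% of the exon bases of Slc39a13 lie outside other genes. CAST_202 was high for Slc39a6 (62.0 CPM, others 45.5 to 47.5) and CAST_170 for Ccs (33.9 CPM, others 29.8 to 31.1). WSB_138 was low for Slc30a2 (1.72 CPM, others 2.43 to 2.81) and Slc30a5 (46.4 CPM, others 48.8 to 50.1), and WSB_169 was high for Slc39a10 (361 CPM, others 276 to 302). The part of the cerebellar markers of CAST_142 in its values was not tested.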

How the results depend on the processing

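No paired analysis was possible because the strains share no animal numbers. The counts of calls and the named genes were recomputed under 20 alternatives, except that Dbh gave no value with either lane alone and Steap1 none with lane 5 alone. Of the 21 called metal genes, none changed direction under any of them. All 21 stayed called with RLE or upper-quartile scaling, with no filter on low counts, with dispersion that was not robust and with DESeq2, which called 23. With lane 5 alone 18 were called and with lane 6 alone 19. Leaving out 1 animal gave 13 to 14 higher and 5 to 10 lower, and 7313 to 8726 genes called of all tested. Further genes called were then 7 to 10 higher and 12 to 15 lower, and 13 higher and 14 lower with DESeq2. Without CAST_142 and WSB_100 together 22 metal genes were called, 20 of them among the 21; the call of Atp7a was lost (adjusted p = 0.0519 by edgeR). Slc39a8 and Slc11a1 lost their call with lane 6 alone (adjusted p = 0.0553 and adjusted p = 0.17 by edgeR), and Slc30a4, Heph and Atp7a with lane 5 alone. Dbh lost its call with no filter (adjusted p = 0.0604 by edgeR). Steap3, Mt3, Cp, Atp7b, Tfrc and Aco1 were called under all 20. Overlap with other genes limits what the counts of Mt2, Slc39a7 and Hamp can show, and the 382 reads of Dbh over all animals limit its value.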

Other observations

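The levels of 4 pairs of genes were compared across animals on log2 CPM within each strain. The pairs were Mt1 with Mt2, Fth1 with Ftl1, Tfrc with Slc11a2 and Mt2 with Fkbp5, a glucocorticoid target gene. Over the 6 CAST and the 6 WSB animals, Pearson's r ranged from -0.685 to 0.631 and Spearman's rho from -0.6 to 0.543. The smallest exact permutation p was 0.113, for Fth1 with Ftl1 in CAST, and the adjusted p was 0.919 for all 16 values. Mt2 and Ftl1 had 189 and 954 reads over all animals, and overlap or shared sequence limits their counts. The pairs that hold them can therefore show little about a relation. With the 2 animals farthest from the median of the first gene left out, r ranged from -0.531 to 0.992.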
